A study of Mus musculus with 36 samples.

Results

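The genes described here are 9 genes of the macrophage lineage and of its colony-stimulating factors. Csf1 encodes a ligand, Csf1r its receptor and Csf2rb the shared beta chain of other cytokine receptors, while Adgre1, Itgam, Cx3cr1 and Ccr2 encode surface receptors and Spi1 and Cebpb encode transcription factors. They were taken by symbol from a gene count table, where all 9 of them were found among 29883 genes, and they were followed through 12 groups of 3 libraries each. The groups are bone marrow-derived macrophages and tumour cells of the recurrent PDG-Ink4a line, a mouse glioma line from Nestin-positive progenitors driven by platelet-derived growth factor B on an Ink4a/Arf knockout background. Each cell type was taken from co-culture with the other and from mono-culture, at 0 h (the labelled control), 6 h and 24 h after myelin debris, the lipid-rich remains of nerve sheaths. Macrophages from these assays were sorted by a dTomato label before RNA was isolated. The labels give neither the age nor the strain of the marrow donors, and they do not say whether the 3 libraries of a group, numbered 001 to 003, came from separate cultures. The p-values below therefore measure the spread between these libraries. Whether 0 h cultures were kept for the same time as those given myelin is also not stated, and an effect of myelin and one of culture time cannot be told apart.

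Macrophages survive and mature on signals through the Csf1r receptor tyrosine kinase, which binds Csf1 and a second ligand, Il34, and whose gene is switched on by the lineage factor Spi1 (PU.1). The chain encoded by Csf2rb pairs with an alpha chain, Csf2ra for granulocyte-macrophage colony-stimulating factor, and signals through a separate kinase. In gliomas, tumour cells are known as a source of Csf1, and Ccr2 and Cx3cr1 are used to tell incoming monocytes from resident microglia.

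Total counts ran from 7911378 to 15319104 per library, with a median of 12262573, and levels are in CPM, the count of a gene relative to its library's total, after TMM scaling. The 12 libraries numbered 001 stood apart from the other 24. Among macrophages they had 0 CPM of Xist, against 531 to 1243 CPM in libraries 002 and 003, and their level of Ddx3y, which is Y-linked, was 56.8 to 78.1 CPM, against 5.75 CPM or less. The macrophages of library 001 and of libraries 002 and 003 thus differ in sex-linked transcripts, and spread between libraries is not technical alone. The transcript CT010467.1 took 4.08% to 17.4% of the counts of macrophage libraries 001, against 0.39% to 1.22% in macrophage libraries 002 and 003, and its part in the results was not tested. In tumour cells the 001 libraries held almost no macrophage RNA. Libraries of each cell type also carried some RNA of the other, estimated as the median level of fixed marker genes relative to mono-culture 0 h libraries of the markers' own cell type. The mono-culture 0 h tumour cell libraries themselves held up to 1.34% macrophage RNA. Tumour cell RNA came to 1.08% to 6.61% in the 9 co-cultured macrophage libraries, and macrophage RNA came to at most 6.71% in tumour cell libraries. Results that could move with library number or with this carried-over RNA are given with those values.

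Promoter letters are shown for the ligand Csf1 and for the integrin gene Itgam, because the ligand gene was high in tumour cells and the integrin gene in macrophages, and both have a RefSeq promoter entry. They are the 250 bases before the start on the gene's own strand in GRCm38.p6, the Csf1 stretch being chr3:107760470-107760719 on the minus strand and the Itgam stretch chr7:128062390-128062639 on the plus strand. Capitals mark the letters that matched 1 of 4 motifs searched on both strands.
Csf1: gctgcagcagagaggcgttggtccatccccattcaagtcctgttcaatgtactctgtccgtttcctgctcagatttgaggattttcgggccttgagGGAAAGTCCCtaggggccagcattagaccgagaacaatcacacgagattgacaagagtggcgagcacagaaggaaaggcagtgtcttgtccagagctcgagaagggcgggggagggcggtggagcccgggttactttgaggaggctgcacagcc
Itgam: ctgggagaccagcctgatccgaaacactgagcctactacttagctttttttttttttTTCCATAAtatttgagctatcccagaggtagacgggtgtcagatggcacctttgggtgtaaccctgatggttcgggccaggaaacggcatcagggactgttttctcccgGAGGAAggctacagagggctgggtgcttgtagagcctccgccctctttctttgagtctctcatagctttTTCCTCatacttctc
The Csf1 promoter held 1 match, on its minus strand, to the NF-kB motif (GGGA, any base, TT, any base, CC), at bases -154 to -145. The Itgam promoter held the PU.1 core GAGGAA at -84 to -79 on its plus strand and at -15 to -10 on its minus strand, and the C/EBP motif TTNNGNAA at -193 to -186 on its minus strand. None of these matches overlapped another. Among 32851 mouse promoters of the same length, 0.98% held the NF-kB letters, 23.3% the PU.1 core, 36.8% the C/EBP letters and 6.75% the AP-1 letters TGANTCA, which neither promoter held. These matches describe letters only, and binding was not measured.

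Ligand and receptor stood in opposite cell types. Csf1 (chromosome 3, 107741048 to 107760469, minus strand, mm10) averaged 11.0 ± 3.71 CPM in macrophages and 791 ± 149 CPM in tumour cells (SD, n = 3 each) in mono-culture at 0 h. Its 3 macrophage libraries held 7.19, 11.0 and 14.6 CPM, against 619, 890 and 863 CPM in the 3 tumour cell libraries. No macrophage library of any group came near the lowest tumour cell library, since the 18 macrophage libraries reached 64.8 CPM at most and the 18 tumour cell libraries began at 578 CPM. The log2 difference of macrophages over tumour cells was -6.26 ± 0.51 (SE; edgeR quasi-likelihood test, adjusted p = 1.82e-11).

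Csf1r (chromosome 18, 61100598 to 61132149) showed the reverse, with 1909, 2564 and 2069 CPM in macrophages and 1.07, 18.5 and 27.9 CPM in tumour cells of mono-culture at 0 h. Its log2 difference was 7.01 ± 1.63 (edgeR, adjusted p = 0.00047). Csf2rb (chromosome 15, 78325752 to 78353847) held 1092, 800 and 650 CPM in those macrophages and at most 2.84 CPM in those tumour cells (8.70 ± 1.41, edgeR, adjusted p = 5.15e-06). All 9 genes were called in this comparison, 8 of them higher in macrophages and 1, Csf1, lower, where 70% of the 14776 genes tested were called (32.4% higher and 37.7% lower). Here and below a call means an adjusted p under 0.05, with the Benjamini-Hochberg adjustment made over every gene in the fit.

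Adgre1, Itgam and Spi1 were likewise genes of the macrophages. In mono-culture at 0 h, Adgre1, an adhesion receptor used as a general mouse macrophage marker (chromosome 17, 57358691 to 57483527), averaged 893 ± 143 CPM in macrophages and 5.44 ± 4.73 CPM in tumour cells. Itgam, the CD11b integrin chain of myeloid cells (chromosome 7, 128062640 to 128118491), averaged 332 ± 81.8 CPM in macrophages and 1.99 ± 1.66 CPM in tumour cells. Spi1 (chromosome 2, 91082390 to 91115756) averaged 261 ± 11.1 CPM in macrophages and 1.21 ± 1.00 CPM in tumour cells. The log2 differences of these 3 genes were 7.25, 7.25 and 7.60. Macrophage RNA came to 0.023%, 0.97% and 1.34% in tumour cell libraries 001, 002 and 003 of this comparison. Its part in the tumour cell levels of these genes, and of Csf1r and Csf2rb above, was not tested.

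Ccr2, the receptor for the monocyte attractant Ccl2 (chromosome 9, 124101950 to 124113557), had no count at all in the 3 mono-culture tumour cell libraries at 0 h and 21.1, 39.5 and 33.4 CPM in the macrophage libraries. Set against a floor of 3 counts per tumour cell library, its macrophage level was at least 112-fold higher. Over all 18 tumour cell libraries it reached 0.153 CPM. Cx3cr1, the receptor for fractalkine (chromosome 9, 119901616 to 120069879, minus strand), separated the cell types least among the surface genes, at 3.35 ± 1.18 log2 units (edgeR, adjusted p = 0.0137, and 0.0557 without tumour cell library 001). It stood at 0.32%, 10.7% and 16.5% of its macrophage mean in tumour cell libraries 001, 002 and 003. Macrophage RNA in these libraries came to 0.023%, 0.97% and 1.34%, and its part in the Cx3cr1 difference was not tested. Cebpb, a factor of inflammatory and granulocyte-macrophage genes (chromosome 2, 167688915 to 167690418), was expressed in both cell types, with 16.9, 12.4 and 14.9 CPM in macrophages and 9.41, 4.96 and 6.01 CPM in tumour cells, a log2 difference of 1.00 ± 0.25 (edgeR, adjusted p = 0.000921).

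Per kilobase of exon, the order of levels in mono-culture macrophages at 0 h was Csf1r at 378 ± 59.2 CPM per kb, Adgre1 at 276 ± 44.3, Csf2rb at 116 ± 30.9, Spi1 at 96.9 ± 4.12 and Itgam at 66.1 ± 16.3 (SD, n = 3). Cx3cr1 at 12.4 ± 7.36, Cebpb at 9.81 ± 1.49, Ccr2 at 4.63 ± 1.38 and Csf1 at 2.07 ± 0.70 CPM per kb followed. The ranges of Csf2rb and Spi1 overlapped, and that of Cx3cr1 overlapped those of Cebpb and Ccr2. The order of Csf2rb and Spi1, and the place of Cx3cr1 beside Cebpb and Ccr2, are therefore not settled. In mono-culture tumour cells at 0 h, Csf1 stood at 150 ± 28.3 CPM per kb and Cebpb at 4.52 ± 1.55, with the other 7 genes at 2.74 or below.

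**Figure D1:**
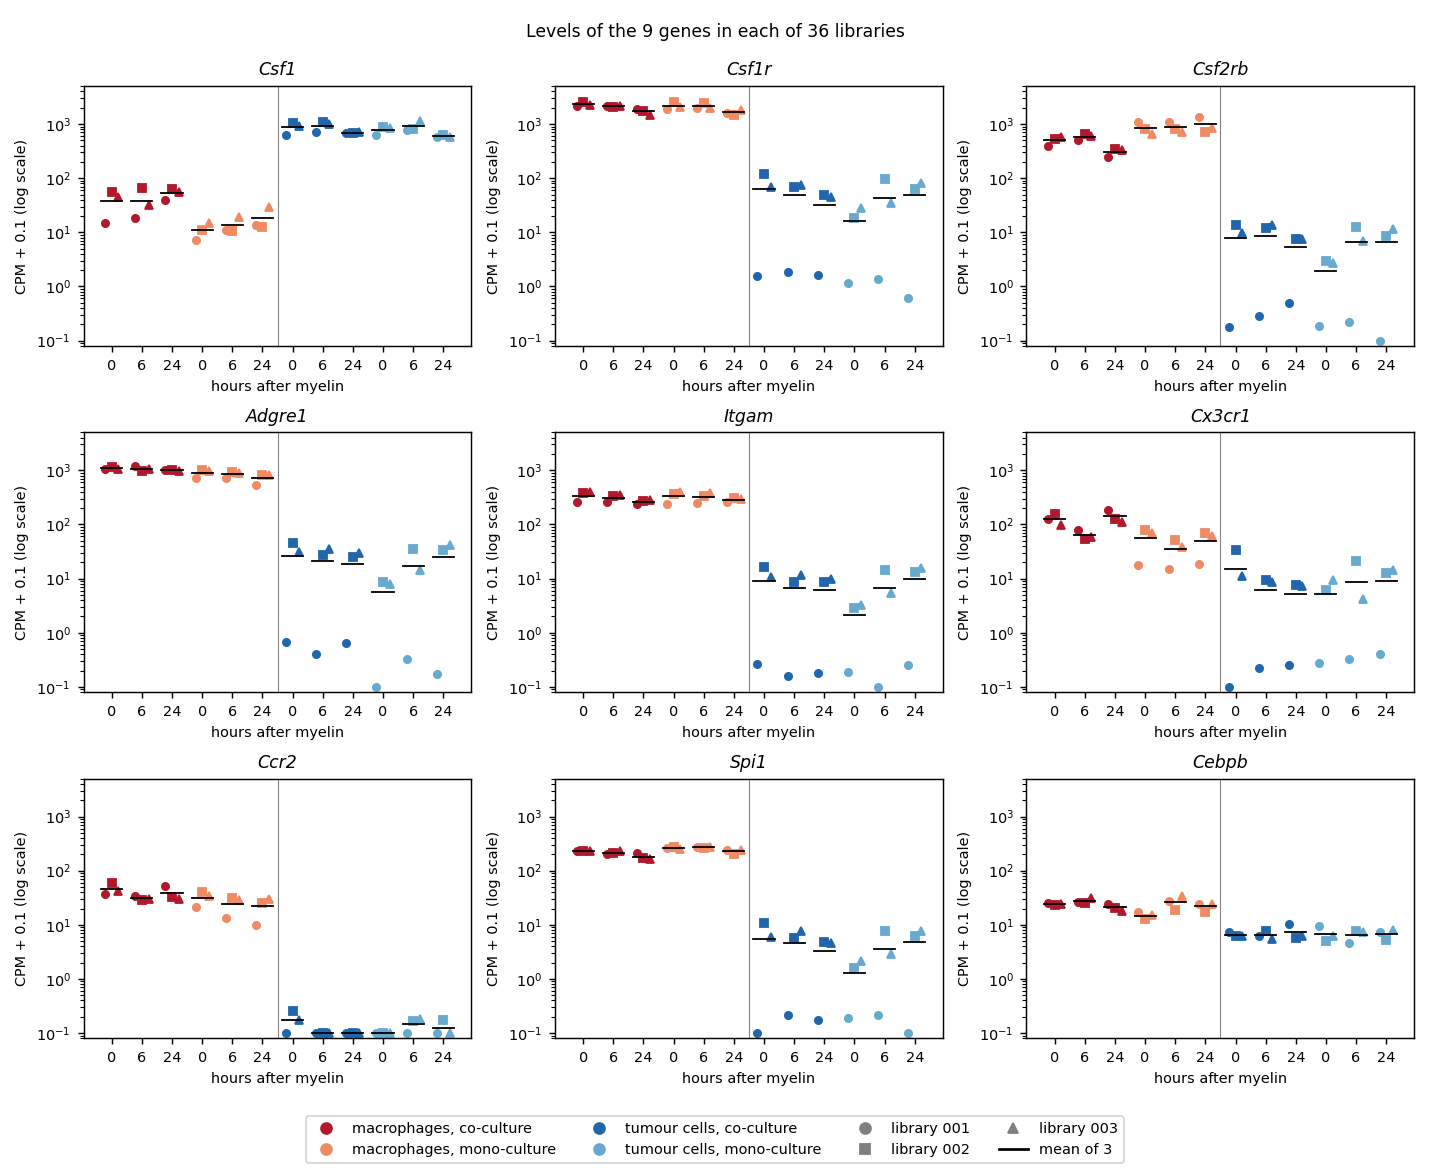
Level of each of the 9 genes in all 36 libraries, as CPM plus 0.1 on a log scale, by hours after myelin, with co-culture left of mono-culture within each cell type; symbols give the library number and black bars the mean of 3. Csf1 lies between 578 and 1120 CPM in tumour cells and at 64.8 CPM or less in macrophages. The other genes are higher in macrophages, without overlap except for Cx3cr1. Its lowest macrophage library held 14.7 CPM and its highest tumour cell library 33.1 CPM. Tumour cell libraries 001 lie far below 002 and 003 for Csf1r, Csf2rb, Adgre1, Itgam, Cx3cr1 and Spi1.

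Macrophages kept with tumour cells were then compared with macrophages kept alone at each time, which asks what the presence of tumour cells does to this axis. At 24 h, 5 of the 9 genes were called, Csf1, Adgre1 and Cx3cr1 higher and Csf2rb and Spi1 lower in co-culture, where 28% of the 13165 genes tested were called (14.3% higher and 13.7% lower). At 0 h, before myelin, 2 of 9 were called (Csf1 and Cebpb, both higher), beside 13.7% of all genes, and at 6 h 1 of 9 was called (Spi1, lower), beside 9.94% of all genes. The 9 genes had a median log2 difference of 0.26 at 0 h, beside -0.02 over all genes tested. It was 0.04 (all genes -0.03) at 6 h and 0.06 (all genes -0.03) at 24 h. These are bulk libraries, in which more cells of a type and more RNA per cell cannot be told apart.

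Csf2rb had the firmest difference. At 24 h its co-culture libraries held 246, 350 and 327 CPM, against 1375, 722 and 862 CPM in mono-culture. Every co-culture library was below every mono-culture library, and mono-culture library 001 was far above the other mono-culture libraries. The log2 difference was -1.69 ± 0.27, a level of 0.309 times that of mono-culture (edgeR, adjusted p = 0.000298), and it was called without each of the 6 libraries in turn (adjusted p 0.000217 to 0.00272). The same order without overlap held at 0 h, with 393, 540 and 570 CPM in co-culture and 1092, 800 and 650 CPM in mono-culture, and at 6 h, with 509, 659 and 589 CPM in co-culture and 1088, 796 and 727 CPM in mono-culture. Neither of these earlier differences passed the test, at -0.79 ± 0.26 (edgeR, adjusted p = 0.0583) and -0.61 ± 0.26 (adjusted p = 0.171). The difference at 0 h did pass with DESeq2 (-0.77, adjusted p = 0.018) and in edgeR on libraries 002 and 003 alone (-0.41, adjusted p = 0.0425), the second setting having been added after the values were seen. The summed level of 8 osteoclast markers was also lower in co-culture. Over the macrophage libraries Atp6v0d2 led it, at a mean of 528 CPM, with Ctsk next at 90.0 CPM. The sum at 24 h was 376, 416 and 632 CPM in co-culture libraries 001, 002 and 003, against 1503, 1013 and 1302 CPM in mono-culture. That sum was also lower in every co-culture library than in every mono-culture library at 0 h and at 6 h, and its part in the Csf2rb difference was not tested. The larger gap at 24 h than at 0 h was tested as a difference of differences, which was -0.91 ± 0.37 and was not called (edgeR, adjusted p = 0.584).

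Csf2rb2, the neighbouring mouse paralogue that forms a receptor specific for interleukin 3, moved with it. It held 245, 344 and 324 CPM in co-culture and 1163, 836 and 945 CPM in mono-culture at 24 h, a log2 difference of -1.70 ± 0.18 (edgeR, adjusted p = 1.34e-05). It was also called at 0 h (-0.81 ± 0.18) and at 6 h (-0.64 ± 0.18). The 2 genes are nearly identical copies, and how shared reads were counted is not stated, so their separate values are uncertain. Csf2ra, the alpha chain that pairs with Csf2rb, fell to 136 ± 1.79 CPM in co-culture at 24 h, against 221 ± 14.8 CPM in mono-culture (-0.72 ± 0.10, edgeR, adjusted p = 6.52e-05).

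Csf1 was higher in co-cultured macrophages. At 24 h it held 40.0, 62.4 and 56.6 CPM in co-culture and 13.9, 12.3 and 28.7 CPM in mono-culture, so every co-culture library was above every mono-culture library. The log2 difference was 1.53 ± 0.50 (edgeR, adjusted p = 0.0335), and it held without co-culture library 001 or mono-culture library 003 but not without any one of the other 4 libraries (adjusted p 0.0749 to 0.115). At 0 h the co-culture libraries held 14.9, 55.7 and 44.9 CPM and the mono-culture libraries 7.19, 11.0 and 14.6 CPM, also without overlap but with co-culture library 001 close to the highest of mono-culture. That difference was 1.77 ± 0.52 (edgeR, adjusted p = 0.0363), and among the fits without 1 library it was called only without co-culture library 001 (adjusted p = 0.00766, against 0.0623 to 0.167 in the other 5). At 6 h the co-culture libraries held 18.0, 64.8 and 32.1 CPM and the mono-culture libraries 11.0, 10.5 and 19.2 CPM, which overlapped and did not pass the test (1.46 ± 0.52, edgeR, adjusted p = 0.0954). In libraries 002 and 003 alone, a setting added after the values were seen, Csf1 was called at 0 h and not at 24 h. On the compared groups alone it was called at 24 h and not at 0 h.

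These Csf1 levels stand beside tumour cell RNA in the same libraries. The tumour cell level used here at every time is the mono-culture 0 h mean of 791 CPM. At 24 h tumour cells averaged less, at 597 CPM in mono-culture and 690 CPM in co-culture. The excess of Csf1 over the mono-culture mean of the same time equalled 2.74%, 5.58% and 4.84% of the tumour cell level in co-culture libraries 001, 002 and 003 at 24 h, where tumour cell markers put tumour cell RNA at 6.61%, 5.30% and 5.82%. At 0 h the excess equalled 0.50%, 5.66% and 4.29% of the tumour cell level, and tumour cell RNA came to 1.39%, 3.37% and 2.32%. At 6 h the excess was 0.56%, 6.47% and 2.34%, with tumour cell RNA at 1.08%, 2.84% and 1.44%.

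Il34, the other Csf1r ligand, was almost absent from mono-culture macrophages, at 0.177 CPM or less in the 9 libraries, and reached 0.10 to 2.02 CPM in co-culture. Its co-culture level at 24 h equalled 4.73%, 6.25% and 4.65% of the mono-culture 0 h tumour cell mean in libraries 001, 002 and 003. The log2 difference of Il34 passed the test at 24 h (4.60 ± 1.00, edgeR, adjusted p = 0.00287) and at 0 h (4.38 ± 1.14, adjusted p = 0.0164). Of the tumour cell marker list, 15 genes were in the table, and their summed level ran from 42.7 to 1307 CPM in macrophages and from 16489 to 30055 CPM in tumour cells. The part of carried-over tumour cell RNA in the Csf1 differences was not tested.

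**Figure D2:**
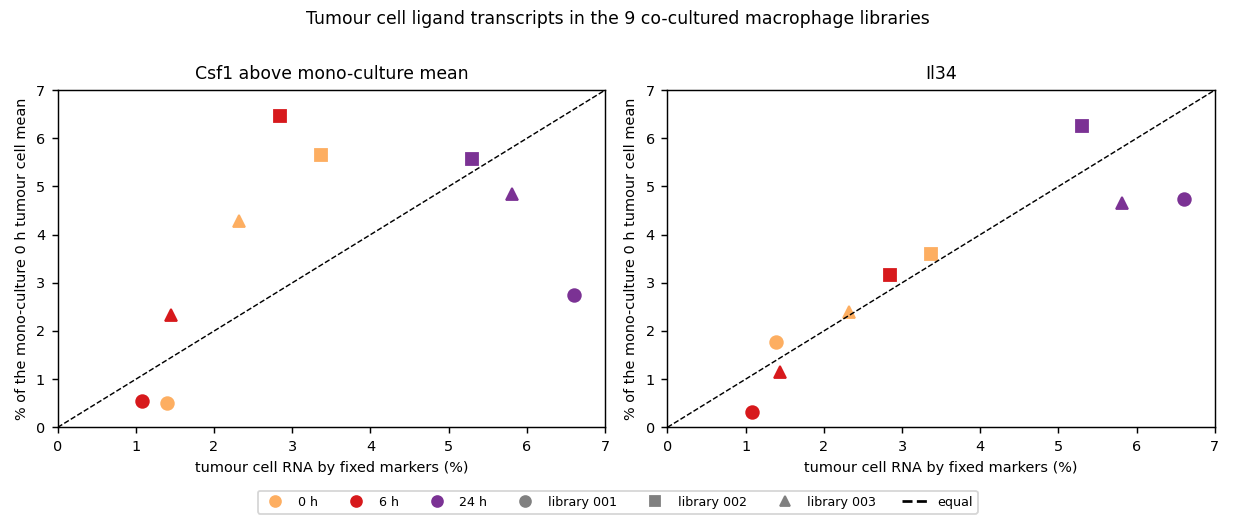
Csf1 above the mono-culture mean (left) and Il34 (right) in the 9 co-cultured macrophage libraries, each as a percentage of the mono-culture 0 h tumour cell mean, against the percentage of tumour cell RNA estimated from fixed markers; colours give hours, symbols the library and the dashed line equality. The points of Il34 lie near the line, and those of Csf1 lie above it in libraries 002 and 003 at 0 h and 6 h and below it in library 001 at every time.

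Csf1r itself did not pass the test between the cultures at any time. At 24 h it held 1924, 1762 and 1477 CPM in co-culture and 1605, 1501 and 1825 CPM in mono-culture, with the libraries interleaved. The log2 differences were 0.06 at 0 h, -0.03 at 6 h and 0.06 at 24 h, with 95% intervals of -0.20 to 0.31, -0.29 to 0.23 and -0.20 to 0.32. Itgam was likewise not called, at 0.01, -0.05 and -0.14, with intervals that lie between -0.52 and 0.40 at all 3 times.

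Spi1 was lower in co-culture. At 6 h its libraries held 203, 210 and 229 CPM in co-culture and 279, 258 and 276 CPM in mono-culture, without overlap (-0.38 ± 0.10, edgeR, adjusted p = 0.02). That call held without mono-culture library 002, mono-culture library 003 or co-culture library 003, and not without the other 3 (adjusted p 0.072 to 0.0794). At 24 h co-culture held 210, 173 and 163 CPM and mono-culture 236, 201 and 244 CPM, where co-culture library 001 overlapped mono-culture (-0.33 ± 0.10, edgeR, adjusted p = 0.0186). It held without co-culture library 001 or mono-culture library 002, and not without the other 4 (adjusted p 0.0768 to 0.108). At 0 h the 3 co-culture libraries lay between 230 and 232 CPM, against 265, 270 and 249 CPM in mono-culture, and the difference of -0.21 ± 0.10 was not called (edgeR, adjusted p = 0.177). In libraries 002 and 003 alone, a setting added after the values were seen, Spi1 was called at 24 h and not at 6 h. On the compared groups alone it was called at neither time.

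Adgre1 was higher in co-culture at 24 h, with 1021, 1001 and 955 CPM, against 541, 811 and 823 CPM in mono-culture. The groups did not overlap, and mono-culture library 001 was the lowest (0.45 ± 0.15, edgeR, adjusted p = 0.0298). The call held without mono-culture library 002 or 003, and not without mono-culture library 001 (0.31, adjusted p = 0.103) or any one co-culture library (adjusted p 0.0512 to 0.0771). In libraries 002 and 003 alone, a setting added after the values were seen, Adgre1 was called. On the compared groups alone it was not.

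Cx3cr1 followed the same direction, with 187, 123 and 110 CPM in co-culture and 18.5, 69.2 and 60.6 CPM in mono-culture at 24 h. The groups did not overlap, and library 001 was the highest in co-culture and by far the lowest in mono-culture. Its log2 difference was 1.49 ± 0.51 (edgeR, adjusted p = 0.0426), and among the fits without 1 library it was called only without mono-culture library 002 (adjusted p = 0.0412, against 0.0534 to 0.143 in the other 5). In libraries 002 and 003 alone, a comparison added after the values were seen, it was 0.85 and called (adjusted p = 0.0152). The Cx3cr1 difference was 1.15 ± 0.51 at 0 h and 0.82 ± 0.52 at 6 h, neither called, although in libraries 002 and 003 alone the 0 h difference was 0.76 and called (edgeR, adjusted p = 0.0371). Ccr2 was not called at any time, with 51.0, 33.0 and 29.6 CPM in co-culture and 9.93, 25.5 and 29.8 CPM in mono-culture at 24 h (0.78 ± 0.36, edgeR, adjusted p = 0.119).

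Cebpb was higher in co-culture before myelin. At 0 h it held 25.1, 22.8 and 24.6 CPM in co-culture and 16.9, 12.4 and 14.9 CPM in mono-culture, without overlap (0.70 ± 0.20, edgeR, adjusted p = 0.0323). Among the fits without 1 library the call held only without mono-culture library 001 (adjusted p = 0.0387, against 0.0695 to 0.124 in the other 5). It held on the compared groups alone. In libraries 002 and 003 alone, a setting added after the values were seen, Cebpb was not called. The differences at 6 h and 24 h were 0.04 ± 0.20 and -0.08 ± 0.20, and neither was called.

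**Figure D3:**
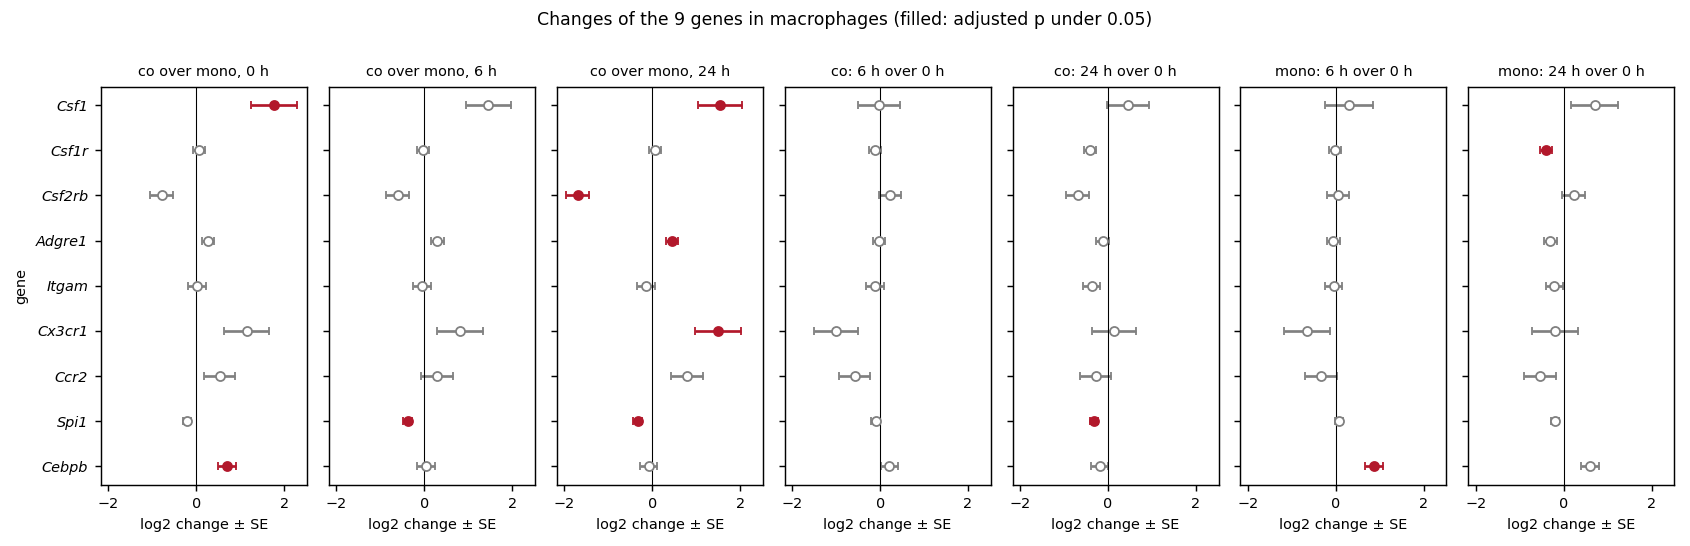
Log2 changes with their standard errors for the 9 genes in 7 macrophage comparisons, co-culture over mono-culture at 0 h, 6 h and 24 h and later times over 0 h within each culture; filled points have an adjusted p under 0.05. At 24 h of co-culture Csf2rb lies at -1.69 and Csf1 and Cx3cr1 at about 1.5, and the changes after myelin lie nearer to 0 than these.

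The change after myelin within each culture was tested next, and each count of the 9 genes stands beside the share of all genes called. In mono-culture at 6 h, 1 of 9 was called, beside 2.15% of all genes. It was Cebpb, with 27.3, 18.4 and 34.1 CPM at 6 h and 16.9, 12.4 and 14.9 CPM at 0 h. Every library at 6 h was above every library at 0 h (0.87 ± 0.21, edgeR, adjusted p = 0.0408). It held without 0 h library 001 or 6 h library 002 and not without the other 4 (adjusted p 0.0622 to 0.228). Cebpb was also not called at 6 h on the compared groups alone, nor in libraries 002 and 003 alone, the setting added after the values were seen. At 24 h Cebpb stood at 24.4, 17.2 and 24.6 CPM, 0.59 ± 0.21 above 0 h and not called (edgeR, adjusted p = 0.0658). With the library number as a block, which called 22.2% of all genes, its adjusted p was 0.0171.

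At 24 h in mono-culture 1 of 9 genes was called, beside 15.2% of all genes. Csf1r fell to 1605, 1501 and 1825 CPM, against 1909, 2564 and 2069 CPM at 0 h, without overlap (-0.41 ± 0.13, edgeR, adjusted p = 0.0441). It held without 0 h library 001 or 24 h library 003 and not without the other 4 (adjusted p 0.0716 to 0.246). On the compared groups alone Csf1r was not called. In libraries 002 and 003 alone, added after the values were seen, Csf1r, Adgre1 and Itgam were called lower. The share of all genes called in that setting is not given here.

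In co-culture at 24 h 1 of 9 was called, beside 11.4% of all genes. Spi1 fell to 210, 173 and 163 CPM, against 230, 232 and 230 CPM at 0 h, without overlap (-0.32 ± 0.10, edgeR, adjusted p = 0.0405). Among the fits without 1 library it was called only without 24 h library 001 (adjusted p = 0.00921, against 0.0758 to 0.168 in the other 5). Csf1r showed the same size of change as in mono-culture, -0.41 ± 0.13, and missed the threshold (edgeR, adjusted p = 0.0538; 0.025 with the block, which called 19.7% of all genes). Itgam was called with the block (edgeR, adjusted p = 0.0163) and not without it (-0.37, adjusted p = 0.241). On the compared groups alone Csf1r and Csf2rb were called lower and Spi1 was not called. In libraries 002 and 003 alone, added after the values were seen, Csf1r, Csf2rb, Itgam, Ccr2 and Spi1 were called lower. The shares of all genes called in these 2 settings are not given here.

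In co-culture at 6 h 0 of 9 were called by edgeR, beside 0.213% of all genes, and 0 had an unadjusted p under 0.05; DESeq2 called 0 as well. The largest change among them was that of Cx3cr1, with 79.9, 54.8 and 57.4 CPM at 6 h and 127, 159 and 99 CPM at 0 h. Those libraries did not overlap, and the change was -1.0 ± 0.51 (edgeR, adjusted p = 0.46). In libraries 002 and 003 alone, added after the values were seen, Cx3cr1 and Ccr2 were called lower. Whether the myelin change differed between the cultures was tested directly, and by edgeR 0 of 9 genes were called at 6 h (0% of all genes, with 1 of 9 at an unadjusted p under 0.05) and 0 at 24 h (0.0152% of all genes, with 2 of 9 at an unadjusted p under 0.05); DESeq2 called 0 at both times.

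In tumour cells Csf1 was the one gene of the 9 with a high level, and it was not called in any of the 9 tumour cell comparisons. Co-culture libraries held 624, 1040 and 937 CPM at 0 h, 710, 1092 and 993 CPM at 6 h and 676, 684 and 709 CPM at 24 h. Mono-culture libraries held 619, 890 and 863 CPM at 0 h, 785, 806 and 1120 CPM at 6 h and 578, 629 and 586 CPM at 24 h. At 24 h all 3 co-culture libraries lay above the highest of mono-culture, by little.

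The log2 difference of co-culture over mono-culture was 0.11 at 0 h, 0.04 at 6 h and 0.20 at 24 h, with 95% intervals of -0.26 to 0.48, -0.33 to 0.41 and -0.17 to 0.57. At 24 h over 0 h, Csf1 changed by -0.33 ± 0.19 in co-culture (edgeR, adjusted p = 0.455) and by -0.42 ± 0.19 in mono-culture (adjusted p = 0.169). In libraries 002 and 003 alone, added after the values were seen, it gave -0.49 (adjusted p = 0.025) and -0.55 (adjusted p = 0.00873) for co-culture and mono-culture. Cebpb lay between 4.43 and 10.2 CPM in all 18 tumour cell libraries and was not called in any comparison.

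The other genes of the axis were low in tumour cell libraries, and their levels varied with macrophage RNA. Of the 8 genes tested (Ccr2 was too low), 0 were called by edgeR in any of the 9 comparisons, with 1 at an unadjusted p under 0.05 in mono-culture at 24 h over 0 h (Csf1) and 0 in the rest, and DESeq2 called 0 throughout. In co-culture 0.0147% of all genes were called at 6 h over 0 h and 0.787% at 24 h, and in mono-culture 0.00735% and 10.5%. Between the cultures 0% of all genes were called at 0 h and 6 h and 0.0809% at 24 h, and 0% in both differences of changes. With the library number as a block, which the data pair in tumour cells, 5 of the 8 were called higher in co-culture than in mono-culture at 0 h (1.19% of all genes), and 5 in mono-culture at 24 h over 0 h (27.9% of all genes). In both cases these were Csf1r, Csf2rb, Adgre1, Itgam and Spi1, with log2 differences of 1.84, 2.03, 2.24, 2.12 and 2.08 between the cultures at 0 h (edgeR, adjusted p 0.00893 to 0.0379). Csf2rb was also called with the block in mono-culture at 6 h over 0 h (1.76, edgeR, adjusted p = 0.0489, beside 0.257% of all genes).

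Macrophage RNA in those libraries moved the same way. Its estimate at 0 h was 0.081%, 6.71% and 4.02% in tumour cell libraries 001, 002 and 003 of co-culture, against 0.023%, 0.97% and 1.34% in those of mono-culture. The estimates at 24 h were 0.081%, 4.07% and 4.30% in co-culture, against 0.046%, 4.61% and 5.82% in mono-culture. All 20 genes of the macrophage marker list were found, and their summed level ran from 10.5 to 2360 CPM in tumour cell libraries and from 25652 to 32897 CPM in macrophages. The part of this RNA in the differences was not tested.

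In libraries 002 and 003, relative to their level in macrophages, Csf1r, Adgre1, Itgam and Spi1 stood at or somewhat below the macrophage RNA share. In co-culture tumour cell library 002 at 0 h, where that share was 6.71%, Csf1r stood at 5.39% of its mono-culture 0 h macrophage level, Adgre1 at 5.12%, Itgam at 4.81% and Spi1 at 4.06%. Csf2rb stood lower, at 1.60%, Ccr2 lower still, at 0.49%, and Cx3cr1 far higher, at 59.2%. In co-culture library 003 at 24 h, with a share of 4.30%, Csf1r stood at 2.06% and Spi1 at 1.75%, farther below the share. Over the 12 tumour cell libraries numbered 002 and 003 Csf2rb ran from 0.30% to 1.60% of its macrophage level and Cx3cr1 from 7.33% to 59.2%. Cx3cr1 was above the macrophage RNA share in each of those 12 libraries.

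**Figure D4:**
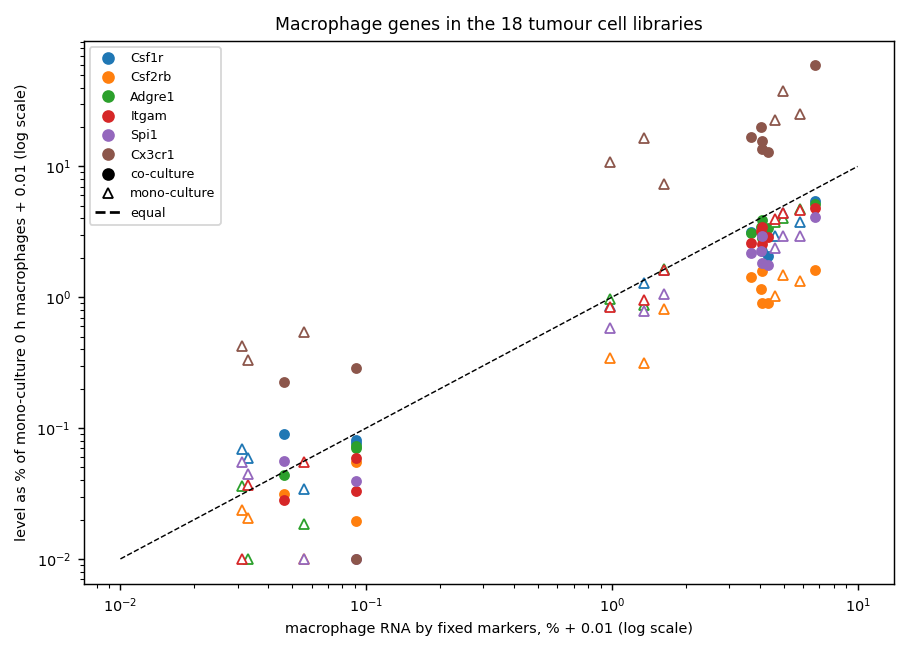
Level of 6 genes in each of the 18 tumour cell libraries, as a percentage of their mean in mono-culture 0 h macrophages, against macrophage RNA estimated from fixed markers, both plus 0.01 on log scales; filled symbols are co-culture, open ones mono-culture, and the dashed line is equality. In libraries 002 and 003, Csf1r, Adgre1, Itgam and Spi1 lie on the line or somewhat below it, Csf2rb farther below it and Cx3cr1 above it, up to 59.2%.

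The wider pathway was described with 5 gene lists, whose counts at 24 h of co-culture against mono-culture stand beside 14.3% of all genes called higher and 13.7% lower. In co-culture macrophages at 24 h against mono-culture, the list of colony-stimulating factor ligands and receptors had 2 of 11 tested genes called higher and 5 lower, with a median of -0.51. The 2 higher genes were Csf1 and Il34, in co-culture libraries with 5.30% to 6.61% tumour cell RNA, whose part was not tested. Besides the genes given above, Csf3r, the granulocyte colony-stimulating factor receptor, fell to 15.1 ± 3.00 CPM in co-culture, against 35.0 ± 16.4 CPM in mono-culture (-1.22 ± 0.28). Of 26 genes that signal below Csf1r and the granulocyte-macrophage receptor, 6 were higher and 6 lower. Socs3, an inhibitor of cytokine signalling, rose to 13.3 ± 2.83 CPM in co-culture, against 2.58 ± 0.56 CPM in mono-culture. The Src-family kinase Lyn and the phosphatase Inpp5d were also higher, by 0.52 and 0.43, while the adaptors Grb2 and Tyrobp were lower, by -0.66 and -0.65.

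Of 25 myeloid transcription factors tested, 5 were higher and 9 lower in co-culture at 24 h, with a median of -0.16. Maf, a factor of mature macrophages, was higher by 0.88. Egr2 and Mitf were lower, by -2.14 and -0.86, and Egr2 held 33.6 ± 11.1 CPM in co-culture and 148 ± 28.4 CPM in mono-culture. Both were also lower at 0 h, by -1.76 and -0.76.

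Of 17 macrophage surface and lysosomal genes tested, 10 were higher and 3 lower in co-culture at 24 h, with a median of 0.79. Fcgr1, the high-affinity immunoglobulin G receptor, stood at 148 ± 43.8 CPM in co-culture and 24.4 ± 10.1 CPM in mono-culture (2.59 ± 0.30). The scavenger receptor gene Msr1 was higher by 1.38 and Cd33 by 1.67. Itgb2, whose product pairs with that of Itgam, went the other way and fell to 969 ± 113 CPM in co-culture, against 2113 ± 221 CPM in mono-culture (-1.13 ± 0.12), although Itgam itself was not called.

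Of 21 monocyte and microglia markers and chemokine partners tested, 14 were higher and 1 lower, with a median of 1.62. Ccl2, the ligand of Ccr2, held 156, 323 and 258 CPM in co-culture and 10.3, 69.5 and 17.8 CPM in mono-culture at 24 h, without overlap (2.89 ± 0.51, edgeR, adjusted p = 0.000783). Mono-culture tumour cells at 0 h held 14.1, 41.8 and 41.8 CPM of it. Ccl2 was also called in macrophages at 0 h (1.87 ± 0.49) and 6 h (1.82 ± 0.48). The related chemokine gene Ccl7 was higher by 4.02. Tmem119, used as a microglia marker, rose to 14.5 ± 3.18 CPM in co-culture, against 0.98 ± 0.50 CPM in mono-culture, and its level in mono-culture tumour cells at 0 h was 112 ± 30.7 CPM. The co-culture libraries at 24 h held 5.30% to 6.61% tumour cell RNA, and its part in the differences of this list was not tested. Over the 5 lists at 24 h, the median of all genes tested was -0.03.

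After myelin, where 15.2% of all genes were called at 24 h in mono-culture and 11.4% in co-culture, the signalling list is given as an example. In mono-culture at 24 h, 5 of its 26 genes were lower and 0 higher, among them the adaptor Dok2 at 46.3 ± 9.57 CPM at 24 h and 151 ± 26.5 CPM at 0 h and the kinase Fgr (-1.45). In co-culture at 24 h the same list had 4 lower and 1 higher, again with Dok2 (-1.0) and Fgr (-1.09) lower. Kit, the stem cell factor receptor, was higher at 24 h in both cultures, at 14.5 ± 7.70 CPM against 3.05 ± 1.70 CPM in co-culture and at 15.5 ± 1.37 CPM against 3.12 ± 1.71 CPM in mono-culture. Csf2ra was lower at 24 h in both, by -0.75 in co-culture and -0.32 in mono-culture, and the difference between these changes was not called (-0.44 ± 0.13, edgeR, adjusted p = 0.407).

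Genes whose levels resembled each of the 9 most across the 18 macrophage libraries were ranked by Pearson correlation of log2 CPM over 8690 genes, as a description in which libraries share culture and number. For Csf2rb the nearest was Csf2rb2 (r = 0.98), followed by F10 (0.93). For Csf1 they were Cdh11 (0.96), Tnc (0.94) and Qsox1 (0.94), for Adgre1 Itga6 (0.96), for Spi1 Mvp (0.96) and for Cx3cr1 Mmd (0.93). The co-cultured macrophage libraries held 1.08% to 6.61% tumour cell RNA, and its part in the ranking for Csf1 was not tested. For Ccr2 the nearest was Sdc4 (0.92), for Csf1r Cd3eap (0.91), for Itgam Clns1a (0.90) and for Cebpb Uqcr10 (0.86). Across the 18 tumour cell libraries the nearest gene to Csf1 was Zfp697 (0.95).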

How the data were processed

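Gene counts were deposited by the authors as 1 table of whole numbers for 36 libraries, with no normalisation. Per the labels, total RNA was isolated from sorted cells and libraries were primed with oligo-dT from a few nanograms. Per the submitters' processing notes the build is mm10, and nothing here states the aligner, the counting tool or the strand setting. Positions of all 9 genes matched GENCODE M21. Overlapping genes (several within the Cx3cr1 span, Gm49368 at Itgam, Tmem189 at Cebpb, Hmgxb3 and Mir6983 at Csf1r, Mir7676-2 at Csf2rb) may share reads.

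Libraries were grouped by title. Tests on counts used edgeR 4.0.16 (with limma 3.58.1, R 4.3.3), TMM, filterByExpr and robust quasi-likelihood dispersions, in 1 fit of 18 libraries per cell type (13165 genes in macrophages, 13603 in tumour cells) and 1 fit of all 36 (14776 genes) for the comparison of cell types. Calls need a Benjamini-Hochberg adjusted p under 0.05 over all genes tested. The standard error is the size of the log2 change over the square root of F, and levels are CPM with TMM. The pipeline was tested on simulated data.

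The labels do not pair libraries of the same number. By the correlation of same-number residuals (limit 0.1), same-numbered libraries of tumour cells pair throughout, and those of macrophages pair over time within a culture and between cultures at 0 h, so block values are given there where they change a call. Carried-over RNA is the median over 16 of 20 macrophage markers, or 6 of 16 tumour cell markers, with at least 100 CPM in their own cell type. The genes named are the 9 members, the partners Csf2rb2, Csf2ra, Csf3r, Il34, Cx3cl1 and Ccl2, up to 3 called genes per direction of each list (some are not reported here), and the genes most alike. The members, lists and rules were chosen with earlier results of these data known. Each result was recomputed with DESeq2 1.42.0, with RLE size factors, without filterByExpr, on the compared groups alone, with non-robust dispersions, with the block, without each library and, added after seeing the data, on libraries 002 and 003 alone. Promoters are from RefSeq, which had entries for 5 of the 9 genes.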

Additional observations from a re-analysis of the deposited data

Results flagged for a closer look

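In tumour cells the 24 h myelin change of Adgre1 and Itgam differed between the cultures when the library number was a block. The difference of co-culture from mono-culture was -2.60 ± 0.45 for Adgre1 (edgeR, adjusted p = 0.0441) and -2.79 ± 0.48 for Itgam (adjusted p = 0.0417), where 0.206% of all genes were called. Without the block these were -2.63 ± 2.44 and -2.77 ± 2.42 and were not called. Adgre1 held 0.539, 25.4 and 30.1 CPM at 24 h and 0.567, 45.8 and 30.7 CPM at 0 h in co-culture, and 0.0749, 33.7 and 42.1 CPM at 24 h and 0, 8.58 and 7.73 CPM at 0 h in mono-culture. Macrophage RNA in libraries 002 and 003 moved the same way, at 4.07% and 4.30% at 24 h and 6.71% and 4.02% at 0 h in co-culture, and at 4.61% and 5.82% at 24 h and 0.97% and 1.34% at 0 h in mono-culture. Its part in the difference was not tested.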

How the results depend on the processing

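The numbers of genes of the 9 that were called depended on the setting; no log2 change that was called turned round under any alternative run. For macrophages in mono-culture the count at 6 h over 0 h was 0 with the compared groups only and with libraries 002 and 003 alone (1 as reported), and at 24 h it was 0 without the low-count filter, 0 with the compared groups only, 2 with the replicate block, 2 with DESeq2 and 3 with libraries 002 and 003 alone (1 as reported). In co-culture it was 2 at 6 h with libraries 002 and 003 alone (0 as reported), and at 24 h 0 with RLE size factors, 0 without the filter, 3 with the block, 2 with DESeq2, 2 with the compared groups only and 5 with libraries 002 and 003 alone (1 as reported). For co-culture against mono-culture macrophages the count was 1 at 0 h without the filter or with the compared groups only and 3 with DESeq2 or with libraries 002 and 003 alone (2 as reported), 2 at 6 h with the block and 0 with the compared groups only or with libraries 002 and 003 alone (1 as reported), and 2 at 24 h without the filter, 3 with the compared groups only and 4 with libraries 002 and 003 alone (5 as reported). The share of all genes called moved with the setting too. At 24 h over 0 h in macrophages it was 11.4% as reported and 19.7% with the block in co-culture. In mono-culture it was 15.2% and 22.2%. These counts are therefore no result about the 9 genes alone, and shares under the other settings are not given here. The cause of the moves was not tested. At 6 h and 24 h the numbers do not pair macrophage libraries across cultures (lowest correlation -0.02 and 0.07), nor in the differences of changes (-0.06 and 0.07) or between cell types (0.06).

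In tumour cells, where 0 were called as reported, the block gave 1 in mono-culture at 6 h over 0 h, 5 at 24 h over 0 h, 5 between the cultures at 0 h and 2 in the difference of the 24 h changes. The block called 0.257%, 27.9%, 1.19% and 0.206% of all genes in these comparisons. Libraries 002 and 003 alone gave 1, 5, 4 and 1 in these, and 1 in co-culture at 24 h over 0 h. Leaving out each library in turn gave 0 to 1 called in mono-culture macrophages at 6 h over 0 h, 0 to 2 at 24 h, 0 to 2 in co-culture at 24 h, and, for co-culture against mono-culture, 0 to 1 at 0 h, 0 to 1 at 6 h and 1 to 4 at 24 h; between cell types it gave 8 to 9. CPM without TMM moved 7 of 108 group levels by more than their SD. Some of the genes varied widely between tumour cell libraries of a group. Adgre1 had 0, 109 and 99 counts in mono-culture libraries 001, 002 and 003 at 0 h. Such genes carried a wide error without the block, and the reason was not tested.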

Other observations

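Cx3cl1, the ligand of Cx3cr1, stood like Csf1 in the tumour cells, at 31.7 to 128 CPM in tumour cell libraries and 1.55 to 7.35 CPM in macrophages. In co-culture tumour cells at 24 h it held 113, 50.7 and 57.4 CPM in libraries 001, 002 and 003, against 97.0, 81.7 and 111 CPM in mono-culture. The groups overlapped and the difference was not called (-0.40 ± 0.45, edgeR, adjusted p = 0.773).

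Markers of other blood cells were low in macrophage libraries, and those of osteoclasts were not. The summed level of 10 neutrophil genes was 2.59 to 60.4 CPM, that of 9 lymphocyte genes 0.41 to 2.37 CPM, that of 6 mast cell and basophil genes 1.05 to 10.1 CPM and that of 8 dendritic cell genes 46.1 to 137 CPM, most of it Bst2. The 8 osteoclast genes summed to 376 to 1503 CPM, with Atp6v0d2 at a mean of 528 CPM.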
